A study of Saccharomyces cerevisiae with 23 samples.

Results

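Ty elements are the LTR retrotransposons of budding yeast: they are transcribed by RNA polymerase II, packed as RNA into virus-like particles, reverse transcribed and inserted into new sites of the genome. In the Ty1, Ty2, Ty3 and Ty4 families 1 full-length transcript carries a frame for Gag, the coat protein of the particle, and a Gag-Pol frame that is reached by a programmed ribosomal frameshift and adds protease, integrase and reverse transcriptase. Ty1 is the most abundant family in laboratory strains. Its transcription is known to depend on the factors Ste12 and Tec1 and to be lower in cells that hold both mating types than in haploid cells.

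The measurements came from 23 mutation accumulation lines of Saccharomyces cerevisiae, labelled 19-1 to 19-50, that is, lines propagated so that spontaneous mutations build up with little selection. Each line was grown without synchronization in YPD at 30 °C and taken in log phase. Its Alexa Fluor 555 cDNA was hybridized to spotted-oligo arrays against Alexa Fluor 647 cDNA of a single reference strain, YPS183, grown in the same medium. All lines form 1 group with 1 column each, and neither an ancestor of the lines nor their ploidy or mating type was used here, because the labels do not name them.

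The Ty reading frames were taken from a list of 60 systematic names that was drawn up after departures of single lines in these data had been seen, so the levels by line are descriptions and carry no test. Of these, 58 were found among the 6334 features of the table. They comprise 47 frames of Ty1 (22 Gag and 25 Gag-Pol), 8 of Ty2 (4 Gag and 4 Gag-Pol), 1 of Ty3 (YIL080W, a Pol frame) and 2 of Ty4 (YJL114W, Gag, and YJL113W, Gag-Pol). The other 2 names, YBL100W-A and YBL100W-B, are held under the older names YBL101WA and YBL101WB and are given with the Ty frames outside the list. No filter on low values was applied, and all 58 had a value in all 23 lines. Most Ty1 frames and all Ty2 frames share the length of their kind in the R64 annotation of RefSeq. There 21 of the 22 Ty1 Gag frames are 1323 bases long and 20 of the 25 Ty1 Gag-Pol frames 5269 bases. The Ty2 Gag frames are 1317 bases long and the Ty2 Gag-Pol frames 5314 bases. YIL080W was not matched to a frame of that annotation and has no length from it.

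Values are the authors' normalized log ratios, read as log2. The sources used here do not name the numerator, so a positive value is a positive deposited ratio and does not say whether the line or the reference had more transcript. In a culture, a shift in some of the cells and a smaller shift in all of them cannot be told apart. Many Ty copies are near-identical, and whether their spots measure separate transcripts was not tested; copy number was not measured. The column SDs over all features lay between 0.245 (line 19-49) and 0.583 (line 19-10), so line 19-10 had the widest spread of all arrays. The lowest correlation between 2 lines over all features was -0.636 (19-4 and 19-44), and lines 19-1 and 19-45 correlated at 0.899.

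In 2 of the 23 lines, 19-10 and 19-40, most Ty1 frames and the Ty2 Gag-Pol frames had strongly positive ratios, while Ty2 Gag, Ty3 and Ty4 frames did not. The median of the 47 Ty1 frames was 1.82 in line 19-10 and 1.03 in line 19-40. In the other 21 lines it ran from -0.23 in line 19-19 to 0.24 in line 19-45, with a median of 0.09 over these lines. Both lines thus stood clear of the rest for Ty1, and line 19-10 was the higher of them. Quantile normalization between arrays lowered the medians to 0.843 in line 19-10 and 0.635 in line 19-40.

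A frame was counted as departing in a line where its value and the mean over the remaining 22 lines were at least 1 apart. Of the 1334 pairs of a frame and a line, 73 departed, against 2.37% of all such pairs in the table. Line 19-10 held 42 of them, all positive, where 5.02% of all features departed upward. Line 19-40 held 22, all positive, where 4.29% of all features did so. The remaining 9 were in line 19-19 and were negative, where 1.20% of all features departed downward. The mean they were set against includes the high lines 19-10 and 19-40. In line 19-19 itself, 4 of the 58 frames were at -1 or lower. Without lines 19-10 and 19-40, 5 departures remained in all. The departures involved 44 of the 58 frames, and quantile normalization left 10 departures in place of 73. The departures nearest to the threshold were 1.0 just inside it and 0.976 just outside it. Because these departures were in view when the list was made, nothing is read from their excess over the shares of all features.

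**Figure D1:**
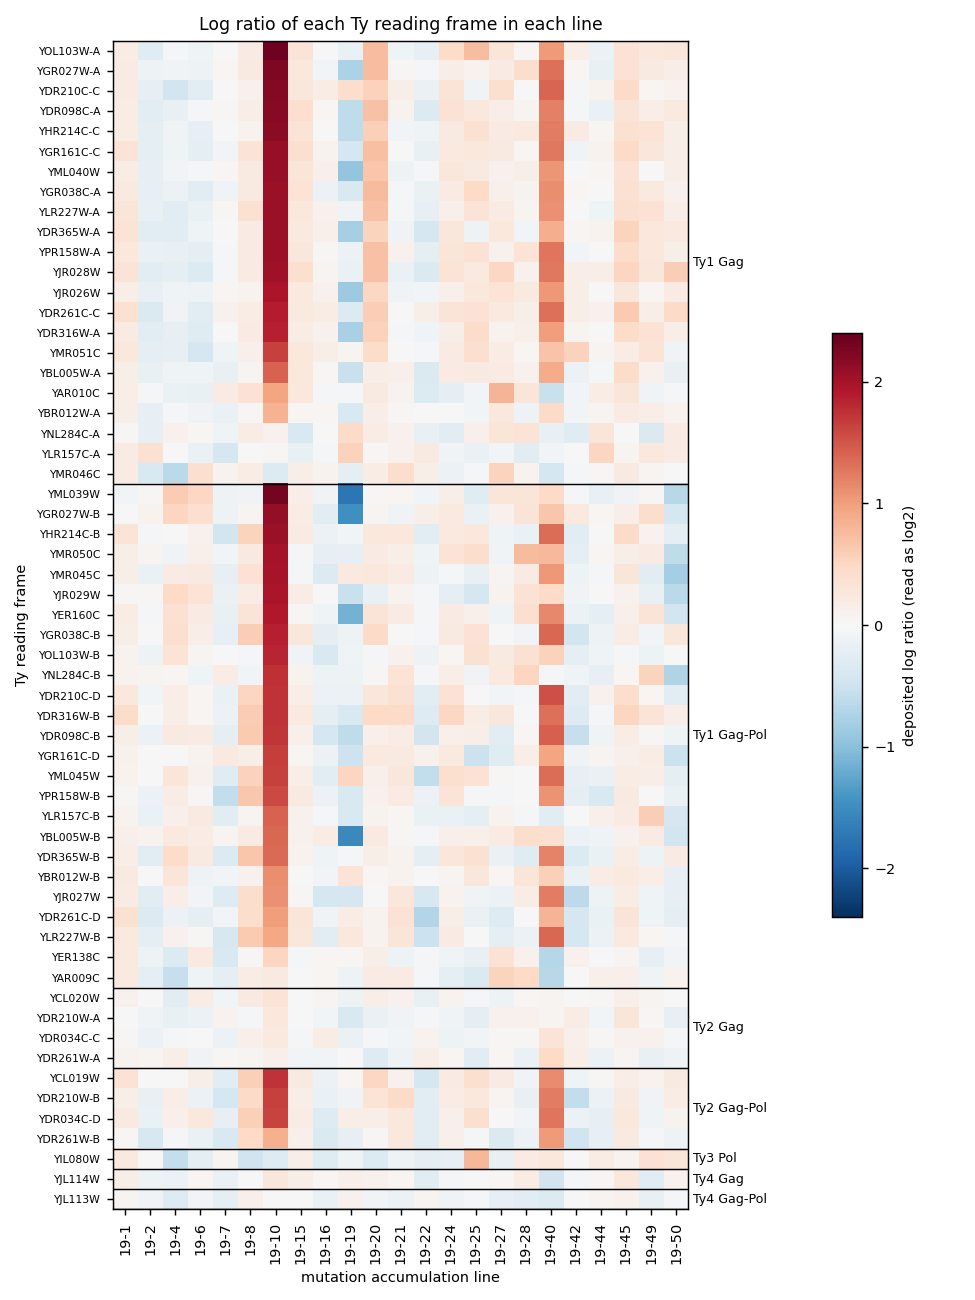
Deposited log ratio (colour, read as log2) of each of the 58 Ty reading frames (rows, grouped by family and frame and ordered within a group by the value in line 19-10) in each of the 23 lines (columns). The columns of lines 19-10 and 19-40 are positive in most Ty1 and all Ty2 Gag-Pol frames, and line 19-19 holds the most negative values.

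The Gag frames encode the particle coat. In line 19-10 the median of the 22 Ty1 Gag frames was 2.04, with a range from -0.34 (YMR046C) to 2.33 (YOL103W-A), and 17 of the 22 were at 1 or more. In line 19-40 their median was 1.05, and 14 of the 22 were at 1 or more. In the other 21 lines the median of the group lay between -0.34 (line 19-19) and 0.57 (line 19-20). These intervals do not meet the values of either line.

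YOL103W-A ran from -0.29 in line 19-2, with a median of 0.17 over the lines, to 2.33 in line 19-10, and without lines 19-10 and 19-40 its highest value was 0.75 in line 19-25. YJR028W ran from -0.35 in line 19-22, with a median of 0.20, to 2.04 in line 19-10, and its highest value elsewhere than in lines 19-10 and 19-40 was 0.70 in line 19-20. YDR261C-C ran from -0.34 in line 19-2, with a median of 0.18, to 1.88 in line 19-10, and its highest value in the 21 lines was 0.63 in line 19-45. These 3 Gag frames had the highest means of all 58, and in each of them line 19-10 was far above every line except 19-40. YGR027W-A, the Gag frame with the highest SD, ran from -0.75 in line 19-19 to 2.24 in line 19-10 with a median of 0.15.

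The 17 Ty1 Gag frames that reached 1 in line 19-10 also followed one another elsewhere: over the 21 lines without 19-10 and 19-40 the median Pearson r between 2 of them was 0.80 (range 0.22 to 0.96). In line 19-20 their median was 0.66, with a range from 0.16 to 0.75. The remaining 5 frames (YAR010C, YBR012W-A, YLR157C-A, YMR046C and YNL284C-A) had a median of 0.11 in line 19-10, -0.19 in line 19-40 and 0.17 in line 19-20, and their median r with one another was 0.15. They ran from -0.34 to 0.95 in line 19-10, and YBR012W-A, at 0.84 there and 0.46 in line 19-40, was above its highest value of 0.26 in the other 21 lines in both. The split was made on line 19-10 after its values had been seen, and points in these correlations share the arrays and the reference.

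Gag-Pol frames hold the enzymes for reverse transcription and integration. The median of the 25 Ty1 Gag-Pol frames was 1.71 in line 19-10 and 0.94 in line 19-40, and 22 and 12 of them were at 1 or more. Over the other 21 lines the median ran from -0.23 (line 19-50) to 0.32 (line 19-8). All 25 were positive in line 19-10, from 0.21 (YAR009C) to 2.29 (YML039W), whereas line 19-40 spread from -0.68 (YER138C) to 1.55 (YDR210C-D).

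Outside lines 19-10, 19-40 and 19-19, the Ty1 Gag-Pol frames differed in whether they tracked the Ty2 Gag-Pol frames. In 11 of the 25, the Pearson r across these 20 lines with the median of the 4 Ty2 Gag-Pol frames was 0.70 to 0.90, while their r with YML039W, the Gag-Pol frame with the highest SD, was 0.01 to 0.29. In the other 14 the r with the Ty2 median was at most 0.45. Among those 14, 5 frames other than YML039W itself had an r of 0.61 to 0.83 with YML039W: YJR029W (0.83), YGR027W-B (0.81), YBL005W-B (0.71), YMR045C and YER160C. The rest of the 14 had an r under 0.6 with YML039W, down to -0.09 (YAR009C). The 14 are thus a remainder and did not share 1 pattern. No frame lay between 0.45 and 0.70 on the Ty2 axis, so the gap separates 11 frames that tracked Ty2 Gag-Pol from 14 that did not. The groups were formed after the values had been seen.

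The lines left out of that split also differed between the groups. In line 19-40 all 11 frames of the group that tracked Ty2 were between 0.82 and 1.55, and 3 of the other 14 reached 0.8, with a range from -0.68 to 1.15. In line 19-19 none of the 11 was at -1 or lower, with a range from -0.61 to 0.51, against 4 of the 14, which ran from -1.73 to 0.32. In line 19-10 the ranges overlapped broadly, from 0.94 to 2.07 in the 11 and from 0.21 to 2.29 in the 14. Line 19-40 thus set the groups nearly apart and line 19-10 did not.

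**Figure D2:**
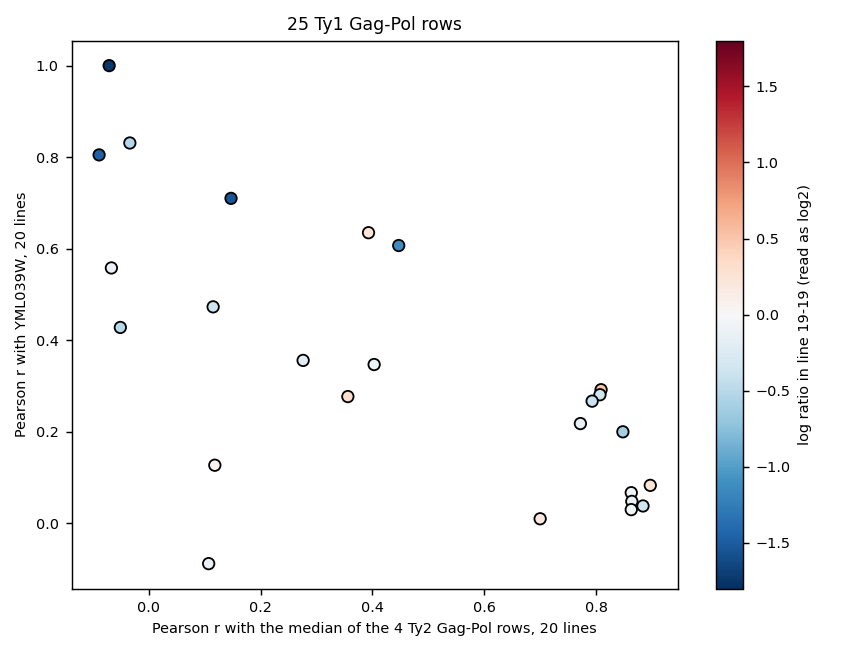
Each point is 1 of the 25 Ty1 Gag-Pol frames. The x axis is its Pearson r with the median of the 4 Ty2 Gag-Pol frames and the y axis its Pearson r with YML039W (which is at 1 with itself), both across the 20 lines without 19-10, 19-40 and 19-19, and the colour is the log ratio in line 19-19. The 11 frames at 0.70 or more on the x axis form a cluster of their own, and the 4 darkest blue points lie outside it.

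Line 19-19 held the lowest values of the 47 listed Ty1 frames. YML039W was at -1.73 there, YBL005W-B at -1.55, YGR027W-B at -1.47 and YER160C at -1.13, and all 4 are Gag-Pol frames. The lowest of the 22 listed Gag frames in that line were YML040W at -0.94, YJR026W at -0.88, YDR365W-A at -0.80, YDR316W-A at -0.77 and YGR027W-A at -0.75. YML040W and YGR027W-A are the Gag frames of the same elements as YML039W and YGR027W-B. The Gag-Pol mates of YJR026W, YDR365W-A and YDR316W-A were less negative there, at -0.40 (YJR027W), -0.04 (YDR365W-B) and -0.365 (YDR316W-B). At the other end of line 19-19 stood YLR157C-A at 0.56, and the SD over its 47 Ty1 frames was 0.51, against 0.65 in line 19-10, 0.61 in line 19-40 and at most 0.32 in the other lines. The median over Ty1 frames in that line, -0.23, therefore covers frames that were strongly negative and frames near or above 0.

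YML039W ran from -1.73 in line 19-19 over a median of 0.02 to 2.29 in line 19-10, and its highest value in the 21 lines was 0.61 in line 19-4. YGR027W-B ran from -1.47 in line 19-19 over a median of 0.11 to 2.11 in line 19-10, with 0.52 in line 19-4 as the highest of the 21 lines. In both frames the lowest and the highest line were the same, and the gap between them was the widest among the Ty frames. In line 19-50 YML039W was at -0.67, and the 5 frames with the highest r to it ran from -0.81 (YMR045C) to -0.43 (YGR027W-B). Line 19-50 is 1 of the 20 lines behind that r, so these low values are part of the r and add nothing to it. Frames outside the 5 were as low in that line, such as YNL284C-B at -0.72 and YMR050C at -0.62.

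Some Gag-Pol frames did not follow the majority in the 2 high lines. YAR009C was at 0.21 in line 19-10 and -0.66 in line 19-40. YER138C was at 0.51 and -0.68 in these lines. YAR009C is annotated at 3591 bases and YER138C at the common length of 5269 bases. YDR261C-D, the other short Gag-Pol frame at 4816 bases, was at 1.01 in line 19-10 and 0.82 in line 19-40.

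Ty2 showed a split between its frames. The 4 Ty2 Gag-Pol frames had a median of 1.63 in line 19-10 and 1.18 in line 19-40, against -0.31 (line 19-42) to 0.52 (line 19-8) in the other 21 lines. The 4 Ty2 Gag frames had a median of 0.24 in line 19-10 and 0.19 in line 19-40, against -0.15 to 0.13 in the others. YDR210W-B, the Ty2 Gag-Pol frame with the highest SD, ran from -0.60 in line 19-42 over a median of 0.14 to 1.64 in line 19-10. YDR261W-A, the Ty2 Gag frame with the highest SD, ran from -0.30 in line 19-20 over a median of 0.03 to 0.47 in line 19-40. YDR210W-A, a Ty2 Gag frame with one of the lowest means, ran from -0.37 in line 19-19 over a median of -0.05 to 0.30 in line 19-45. The Ty2 Gag frames thus stayed between -0.37 and 0.47 in every line, and their Gag-Pol mates did not.

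**Figure D3:**
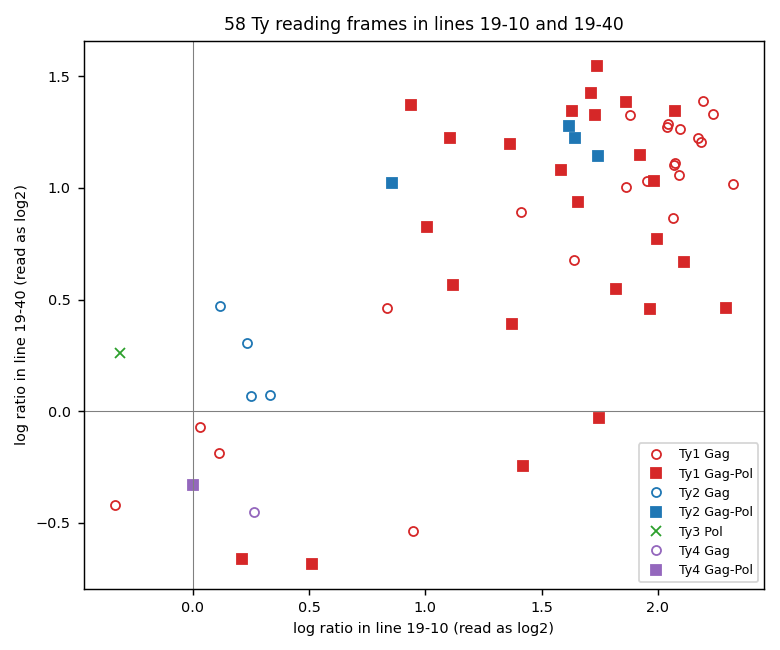
Log ratio (read as log2) of each of the 58 frames in line 19-10 (x axis) and line 19-40 (y axis), with families by colour and frames by symbol. The 4 Ty2 Gag frames lie between 0.12 and 0.33 on the x axis, the Ty2 Gag-Pol frames between 0.86 and 1.74, and the Ty1 frames YAR009C, YAR010C, YER138C and YLR157C-B and both Ty4 frames combine a positive x value with a y value of -0.24 or lower.

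Within single elements the Gag-Pol value minus the Gag value gives the same contrast. Over the 4 Ty2 elements the median of this difference was 1.39 in line 19-10 and 1.02 in line 19-40. Over the 22 Ty1 elements with both frames it was -0.17 in line 19-10, 0.10 in line 19-40 and -0.04 in line 19-19. Single Ty1 elements went far from that median: in line 19-10 the difference was 2.32 for YMR045C and YMR046C, 1.63 for YNL284C-B and YNL284C-A and 1.39 for YLR157C-B and YLR157C-A, where the Gag-Pol frames were at 1.98, 1.75 and 1.42. In the other direction it was -1.13 for YLR227W-B and YLR227W-A. The sources used here do not give the place of each oligo in its element.

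Across all 23 lines the median r between Gag and Gag-Pol mates was 0.76 for Ty1 and 0.45 for Ty2. Without lines 19-10 and 19-40 it was 0.31 for Ty1 and -0.13 for Ty2. Among all pairs of Ty1 Gag frames the median r was 0.91 with these lines and 0.66 without them, and among the Ty2 Gag-Pol frames 0.93 and 0.79. Among the Ty1 Gag-Pol frames it was 0.75 and 0.38, and among the Ty2 Gag frames 0.38 and 0.22. All of these medians were lower without the 2 lines.

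The Ty3 and Ty4 frames did not share the high ratios of Ty1 in lines 19-10 and 19-40. YIL080W, a Ty3 Pol frame, ran from -0.57 in line 19-4 over a median of -0.01 to 0.80 in line 19-25, and was at -0.31 in line 19-10 and 0.26 in line 19-40. Its r across the 23 lines was 0.80 with YGR109W-B, the Gag-Pol frame of the other Ty3 element, and 0.57 with YIL082W-A. YIL080W lies on chromosome IX, and in lines 19-49 and 19-50, where the median of the 224 features of that chromosome was 0.32 and 0.25, it was at 0.34 and 0.28. In lines 19-25 and 19-40, where YIL080W was at 0.80 and 0.26, the chromosome median was -0.005 and -0.04. The Ty4 Gag frame YJL114W ran from -0.45 in line 19-40 over a median of 0.04 to 0.26 in line 19-10. The Ty4 Gag-Pol frame YJL113W ran from -0.33 in line 19-40 over a median of -0.07 to 0.13 in line 19-8. Both Ty4 frames were thus at their lowest in line 19-40, but YJL114W was at its highest in line 19-10. Most Ty1 frames were high in both lines. Over the 21 lines without these, the median r of YJL114W was 0.31 with Ty1 Gag and 0.18 with Ty1 Gag-Pol frames. For YJL113W both medians were 0.04.

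**Figure D4:**
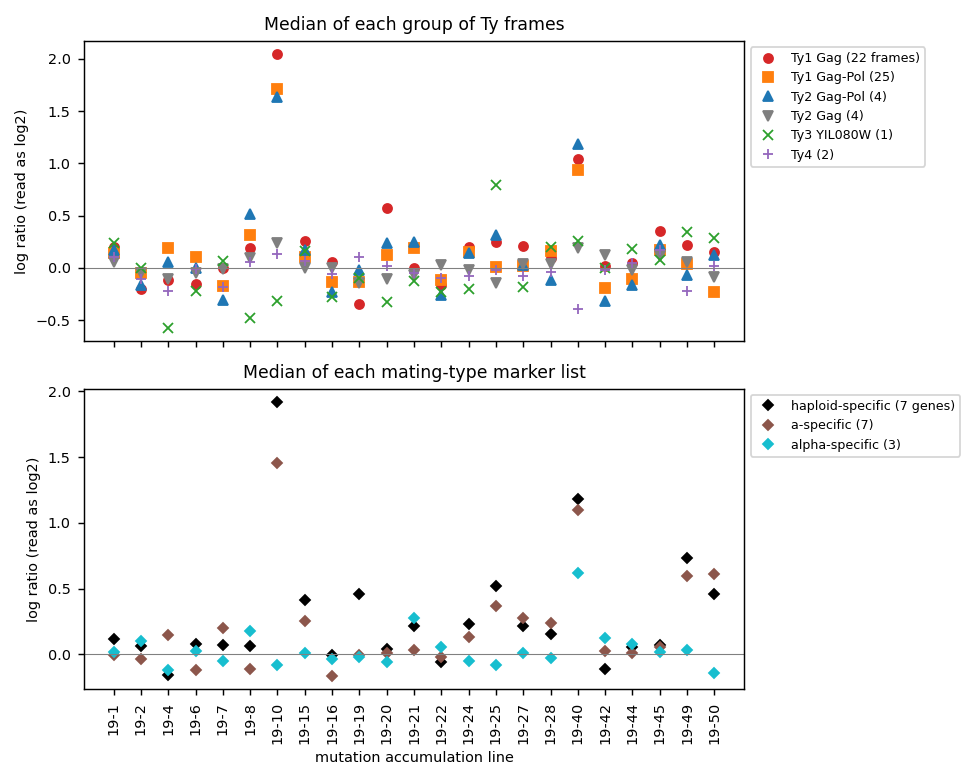
Median log ratio (read as log2) in each of the 23 lines of the Ty1 and Ty2 frames by kind, of the Ty4 frames and of the Ty3 frame (upper panel), and of 3 lists of mating-type genes (lower panel). Ty1 Gag, Ty1 Gag-Pol and Ty2 Gag-Pol are all above 0.9 in lines 19-10 and 19-40 and in no other line, and the haploid-specific and a-specific lists have their highest medians in the same 2 lines.

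The table holds 40 further Ty rows whose names are not on the list. Among them YBL101WA and YBL101WB are listed frames held under older names. YDR210WC, YDR210WD, YOR343CA and YOR343CB are older names as well, and whether they repeat frames with current names was not tested. YBL101WA, a Ty2 Gag frame, was at 0.06 in line 19-10 and 0.26 in line 19-40, and its mate YBL101WB, a Ty2 Gag-Pol frame, was at 1.43 and 1.47. The 11 Ty1 Gag frames among the 40 had a median of 2.07 in line 19-10 and 1.12 in line 19-40, and the 6 Ty1 Gag-Pol frames 1.76 and 1.20. The 7 Ty2 Gag frames had a median of 0.15 in line 19-10 and the 7 Ty2 Gag-Pol frames 1.46. In line 19-40 these medians were 0.106 and 1.255. The contrast between Ty2 frames was thus present in these rows too. Exceptions were YLR410W-A among the Gag frames (1.98 in line 19-10) and YOR343W-B among the Gag-Pol frames (0.52 in line 19-10 and -0.12 in line 19-40). The Gag-Pol frame YOR192C-B was at 1.39 in line 19-10 and only 0.09 in line 19-40. YLR035C-A, part of a Ty2 Pol frame, was at 1.97 in line 19-10, 0.55 in line 19-40 and -0.88 in line 19-19. In line 19-19 the Ty1 frames YOR142W-B and YPR158C-C were at -1.41 and -1.04. The 4 Ty3 frames, the Ty4 frames and the 2 partial Ty5 frames outside the list lay between -0.45 and 0.35 in line 19-10.

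Each Ty frame's mean over the 23 lines was tested against 0 with limma across all 6334 features. None of the 58 frames passed at an adjusted p of 0.05, and 15 had an unadjusted p below that value. Of all features 9.22% were called, 3.99% with a positive and 5.23% with a negative mean, and 1539 of the 6334 had an unadjusted p below the threshold. The means of the frames ran from -0.07 ± 0.03 (SE, n = 23) for YJL113W to 0.28 ± 0.10 for YDR261C-C, whose adjusted p in limma was 0.0678 with 19 of 23 lines positive. YJR028W had a mean of 0.28 ± 0.11 (limma adjusted p = 0.108) and YOL103W-A 0.27 ± 0.11 (limma adjusted p = 0.125). The means were positive in 51 of the 58 frames, and their median was 0.13, against 0 over all features. Without lines 19-10 and 19-40 the median was 0.04 and again none passed, where 5.45% of all features were called positive and 6.58% negative. Leaving out line 19-10 alone gave a median of 0.058. YDR261C-C passed when line 19-2 (limma adjusted p = 0.0496), 19-6 (0.0493) or 19-19 (0.0457) was left out. The mean of most frames was thus small beside the value in the 2 high lines. The Ty1 Gag frames had the highest median of means, 0.21, then the Ty2 Gag-Pol frames with 0.16, the Ty1 Gag-Pol frames with 0.11 and the Ty2 Gag frames with 0.01.

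The frames also differed in their spread between lines. The SD over the 23 lines had a median of 0.47 over the 58 frames, against 0.26 over all features, and without lines 19-10 and 19-40 of 0.26 against 0.25. YML039W had the highest SD (0.67) and remained highest without these lines (0.47), then with its lowest value in line 19-19. The Ty2 Gag frames had SDs from 0.12 to 0.17 and the Ty4 frames 0.13 and 0.17. The highest of the 23 values was in line 19-10 for 46 frames (11.1% of all features), in line 19-40 for 5 (8.08% of all features, a share near that of the frames), and the lowest was in line 19-19 for 19 (7.09% of all features). Both high lines lay above all of the other 21 lines in 41 frames, namely 36 of Ty1, the 4 Ty2 Gag-Pol frames and 1 Ty2 Gag frame, where 3.08% of all features did.

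Mating-type genes were set beside the Ty values, because haploid cells and cells with both mating types are known to differ in Ty1 transcription. In line 19-10 the median of 7 a-specific genes was 1.45 and that of 7 haploid-specific genes 1.92, while 3 alpha-specific genes had a median of -0.08. STE2, the receptor for alpha-factor, was at 4.55 in that line. In line 19-40 the medians were 1.10, 1.18 and 0.62, STE2 was at 2.86, and MFALPHA1, a gene for the alpha-factor precursor, was at 2.29. Of the 7 a-specific genes, 6 in line 19-10 and 5 in line 19-40 were above the other 21 lines, and of the 7 haploid-specific genes 6 and 4. Of the 3 alpha-specific genes 0 in line 19-10 and 3 in line 19-40 were above the other 21 lines. The share of all features above these 21 lines was not counted for each line alone. Of all features, 11.1% had the highest of their 23 values in line 19-10 and 8.08% in line 19-40. These shares use a stricter criterion, since a feature can lie above the 21 lines without being the highest of 23. They are not the background of the counts, and nothing is read from the counts. ASG7 was at -0.13 and -0.24 in these lines and STE6, the a-factor exporter, at 1.503 and -0.47. The a-specific and haploid-specific medians and the Ty1 median were thus high in the same 2 lines, whereas the alpha-specific median was high in line 19-40 alone, and the part of the markers in the Ty1 result was not tested.

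In the other 21 lines the marker medians went up to 0.61 for the a-specific genes (line 19-50) and to 0.74 for the haploid-specific genes (line 19-49), where the Ty1 medians were 0.003 and 0.15. Across these 21 lines the Ty1 median had a Pearson r of 0.22 and a Spearman rho of 0.21 with the haploid-specific median, 0.25 and 0.27 with the a-specific median, and -0.004 and -0.09 with the alpha-specific median. With all 23 lines the Pearson r was 0.88 and 0.85, and it rests on lines 19-10 and 19-40. These correlations of 3 marker lists are descriptions over lines that share 1 reference, with no p because the frames were chosen with the values known.

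**Figure D5:**
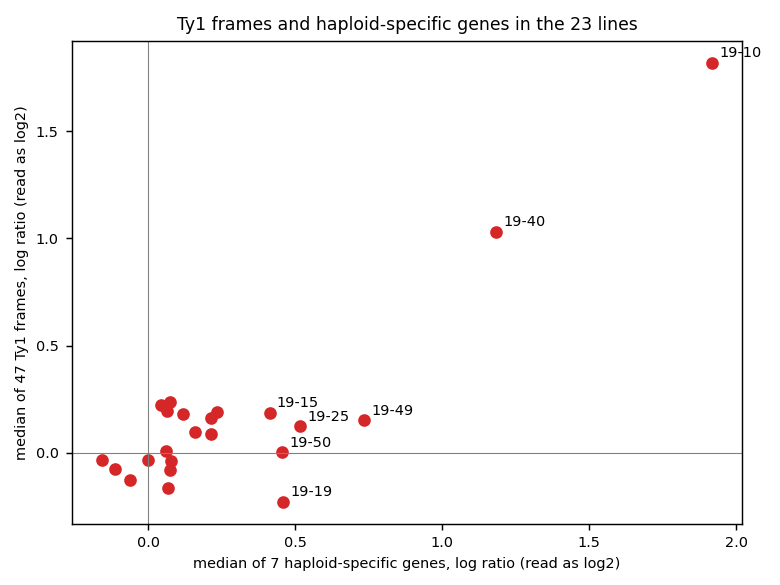
Each point is 1 of the 23 lines. The x axis is the median log ratio (read as log2) of 7 haploid-specific genes and the y axis that of the 47 Ty1 frames. Lines 19-10 and 19-40 lie at the upper right, and the other 21 lines lie between -0.23 and 0.24 on the y axis while spreading from -0.16 to 0.74 on the x axis.

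Host genes known to act on Ty elements were counted in 5 lists, 77 genes in all, in the same limma fit. In total 8 genes (10.4%) were called, all with a positive mean, where 3.99% of all features were called positive and 9.22% in either direction, and 20 had an unadjusted p below 0.05. Without lines 19-10 and 19-40, 12 genes were called, 10 with a positive and 2 with a negative mean. In that fit 5.45% of all features were called positive and 6.58% negative. The 2 host genes with a negative mean were MOT3, a repressor (-0.24, limma adjusted p = 0.0125), and LSM1, an mRNA decay factor (-0.24, limma adjusted p = 0.0223). The 11 regulators of Ty1 transcription held 3 of the 8 genes called over all 23 lines. TYE7, a transcription factor that acts on Ty1, had a mean of 0.33 ± 0.05 (SE, n = 23; limma adjusted p = 0.000185). STE12, the factor at the end of the mating and filamentation cascade, had 0.24 ± 0.07 (limma adjusted p = 0.0271), and its partner TEC1 had 0.19 ± 0.05 (limma adjusted p = 0.0122). In line 19-10 STE12 was at 1.18 and TEC1 at 0.79, and in line 19-40 STE12 was at 0.32, within the range of the other 21 lines (-0.27 to 0.72), and TEC1 at 0.64. Without lines 19-10, 19-40 and 19-19 STE12 did not pass (limma adjusted p = 0.0589).

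Of the 12 genes of the filamentation and mating kinase cascades, 2 were called. STE4, STE18, GPA1, FUS3 and STE5 are in this list and in the haploid-specific list, so the 2 lists are not separate observations. STE4, the beta subunit of the mating G protein, had a mean of 0.53 ± 0.14 (SE, n = 23; limma adjusted p = 0.0151) and was at 2.72 in line 19-10 and 1.58 in line 19-40. DIG1, an inhibitor of Ste12, had a mean of 0.26 ± 0.08 (limma adjusted p = 0.0327) and was at 1.54 and 0.67. Without line 19-25, 19-49 or 19-50 the limma adjusted p of DIG1 was 0.05, 0.0546 and 0.0528 and the call was lost. FUS3, the mating MAP kinase, did not pass (limma adjusted p = 0.0624), with 1.92 and 1.18 in lines 19-10 and 19-40. It passed without these lines (limma adjusted p = 0.0451), as did STE11, a kinase of the cascade (limma adjusted p = 0.0442). STE11 itself was at -0.53 in line 19-10 and -0.01 in line 19-40. KSS1, STE7, STE20 and STE50 were also negative in both lines, whereas GPA1, STE5 and STE18 were positive in both. DIG2 was at 0.26 and -0.45. The median of the 12 genes was 0.51 in line 19-10 and 0.01 in line 19-40.

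The other 3 lists each held 1 called gene. SWI3, a subunit of the SWI/SNF remodeller, was 1 of 21 genes for SAGA and chromatin, with a mean of 0.15 ± 0.04 (limma adjusted p = 0.0204). SSL2, a TFIIH helicase that limits Ty1 cDNA, was 1 of 23 genes for restriction and replication fate, with 0.14 ± 0.04 (limma adjusted p = 0.0188). TFC4, a TFIIIC subunit, was 1 of 10 integration partners, with 0.25 ± 0.05 (limma adjusted p = 0.0037). The medians of these 3 lists in line 19-10 were 0.11, -0.06 and 0.26, well below those of the Ty1 frames.

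The features outside the Ty elements whose 23 values were most like the Ty1 median were MPH1, a DNA helicase (Pearson r = 0.90), FUS3 (0.90), ZRG17, a zinc transporter (0.87), MFA1, a gene for the a-factor precursor (0.87), and YLR400W (0.87). MPH1 was at 1.51 in line 19-10 and 0.67 in line 19-40, with -0.13 to 0.47 in the others. The most unlike were SNU66, a splicing factor (-0.78), YAL069W (-0.74), AMD2 (-0.73), RAD52, the recombination protein (-0.72), and OAR1 (-0.71). RAD52 was at -0.75 in line 19-10 and -0.26 in line 19-40, with -0.39 to 0.33 in the others. None of the 5 most like or of the 5 most unlike was among the 5 on its side when lines 19-10 and 19-40 were left out, where the r of MPH1 was 0.43 and that of OAR1 -0.60.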

How the data were processed

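Per the labels' protocols, total RNA was extracted with an RNeasy kit and cDNA was hybridized on 2-channel spotted-oligo arrays in a common reference design with no dye swap. Each strain had 2 biological replicates per the design text, and it does not say whether they were averaged into a column. The authors deposited 1 normalized log ratio per feature and line, which was read as log2. The sources used here do not give the base, numerator, background correction, normalization or spot filters, and the table holds no signal over background. Column medians lay between -0.018 and 0.018, so no further scaling was applied.

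Features were matched to R64 names of RefSeq by systematic name: 5623 as written, 194 once the hyphen was put back and 38 through an older name. The mean over 23 lines was tested by an intercept fit with eBayes in limma 3.58.1 under R 4.3.3 (two-sided, Benjamini-Hochberg over all 6334 features, threshold 0.05) and was tested on simulated data. The p-values measure the spread between lines and leave out that of the reference and any dye effect. Departures, spreads and correlations were computed in Python 3.11.15 with numpy 2.4.6 and pandas 2.3.3 and drawn with matplotlib 3.10.9. Members and lists were chosen with earlier results of these data known. Frames named with their range were the 3 highest and 3 lowest means, the 3 highest SDs and the frame of highest SD in each family and kind. Of each host list up to 4 called genes were named, and of all other features the 5 most like and 5 most unlike the Ty1 median. Other frames were named with their values in view. Alternatives tried were other centring, scaling, variance models, array weights, sizes of a departure, summaries and lines left out.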

Additional observations from a re-analysis of the deposited data

How the results depend on the processing

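The number of Ty frames called in the mean test (0) was 1 with arrays scaled to a common median absolute deviation, 4 with quantile normalization, 3 with array weights, 1 without lines 19-10, 19-40 and 19-19, and 0 to 1 with a single line left out (1 without line 19-2, 19-6 or 19-19). YDR261C-C was among the called frames, with a limma adjusted p of 0.0221 under quantile normalization. All features called (584) became 1298 with array weights, 884 without the 3 lines and 454 to 682 with a single line left out, and the called host genes (8) became 19 with array weights and 7 to 11 with a single line left out. Departures (73) became 10 with quantile normalization, 174 at a size of 0.5, 38 at a size of 1.5, 5 without lines 19-10 and 19-40, 0 without the 3 lines and 31 to 73 with a single line left out (31 without 19-10 and 48 without 19-40). The median SD (0.47) was 0.261 without lines 19-10 and 19-40, 0.243 without the 3 lines, 0.265 as a median absolute deviation and 0.339 to 0.485 with a single line left out. The median of means was 0.036 without the 2 lines and 0.058 to 0.15 with a single line left out. The Ty1 median in line 19-10 was 0.843 with quantile normalization, and the median r between Ty1 frames was 0.322 without the 2 lines. Means near 0 changed sign: YIL080W was 0.002 with quantile normalization and 0.017 with array weights, YJL114W was 0.000 after centring, 0.008 without the 2 lines, 0.002 without the 3 lines and 0.004 with array weights, and YML039W was -0.062 without the 2 lines. With a single line left out, the means ran from -0.024 to 0.011 for YDR261W-A, from -0.057 to 0.006 for YIL080W and from -0.013 to 0.019 for YJL114W, and YML039W was at -0.038 without line 19-10. The cause of these changes was not tested. The alternatives without the 2 or 3 lines were chosen after seeing the data. No paired analysis was possible because the lines form 1 group.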
